A study of Homo sapiens with 12 samples.

Results

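The smooth muscle actin gene ACTA2 and 9 genes of the contractile apparatus (CNN1, CNN2, CNN3, TAGLN, MYL9, TPM1, TPM2, CALD1 and VCL) were followed through RNA sequencing of Kelly cells. They are 10 of the 60660 gene identifiers in the files, were taken by gene name, and were chosen from their abundance values in these same 12 libraries. Their levels are therefore given as a description, without p-values. Kelly is a human neuroblastoma cell line with amplified MYCN and an adrenergic, neuron-like character. The 3 derivatives each carried a doxycycline-inducible short hairpin RNA, directed against RCOR1 (shRCOR1), against RCOR2 (shRCOR2) or against no human gene (shCTRL). RCOR1 and RCOR2 encode the RCoR corepressor scaffolds, which bring KDM1A, a histone demethylase, together with histone deacetylases. Each line was sequenced untreated and after 2 µg/mL doxycycline (induced), with 2 libraries in each of the 6 groups. All induced cells, shCTRL included, received doxycycline. The labels give 72 h, whereas the treatment protocol gives 24 or 48 h, so the induction time is uncertain. Whether a line is 1 clone or a pool, and whether replicates are separate cultures, is not stated in the labels; p-values therefore measure the spread between these samples only.

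Contractile force in smooth muscle comes from myosin II filaments that pull on actin filaments. Tropomyosin and caldesmon lie along the actin filament and limit the access of myosin, calponins and transgelins bind and stabilise the filament, and vinculin ties it to cell adhesions. Phosphorylation of the regulatory myosin light chain, by myosin light chain kinase and other kinases, switches the motor on. Many of these genes are targets of serum response factor (SRF), which binds the CArG box together with MRTF coactivators that are released when monomeric actin is low, or with myocardin in smooth muscle. Non-muscle cells build stress fibres from related isoforms, and in neuroblastoma a mesenchymal cell state with such fibres is distinguished from the adrenergic state.

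The promoter letters of the members are shown because the CArG box is the element through which SRF is known to bind contractile genes. In the RefSeq promoter table (GRCh38.p14) 8 of the 10 members had an entry, with 14 promoters, and the 250 bases before each start were searched. The CArG box is 10 bases long, with CC at one end, GG at the other and only A or T between; read backwards on the opposite strand it has the same form, so 1 search covers both strands. The 4 windows that hold a box with at most 1 other base in its A/T core are printed 5′ to 3′ on the strand of the gene, with the box in capitals.
ACTA2, chr10:88952875-88952904, minus strand, first base of the box at −121 from the start: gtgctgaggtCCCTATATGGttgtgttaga
ACTA2, chr10:88952825-88952854, minus strand, first base of the box at −71: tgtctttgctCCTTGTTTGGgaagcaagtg
CNN2, chr19:1026509-1026538, plus strand, first base of the box at −89: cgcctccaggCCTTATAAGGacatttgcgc
CALD1, chr7:134711463-134711492, plus strand, first base of the box at −26: ccagaggtccCCTAAAGAGGaatacattct
The CNN2 box was exact, which made 1 of 14 member promoters (7.14%) with an exact box against 1.16% of all 35116 promoters. With 1 other base allowed, 3 of 14 (21.4%) held a box against 7.04% of all promoters. These matches describe the letters and not binding. Both ACTA2 boxes precede the RefSeq start at chromosome 10, 88952773, while a second RefSeq start at 88991337 had none in its window. The CALD1 box precedes the start at chromosome 7, 134711499, which lies outside the interval that the files give for CALD1.

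The deposited unit is TPM, a transcript abundance normalised for length that gives a share of the RNA of a library. Since it is a share in bulk RNA, fewer cells with a transcript and less of it per cell cannot be told apart. Depth differed 2.16 times between the deepest and the shallowest library, by the ratio of coverage to FPKM, and 14758 to 16026 genes reached 1 TPM. The targeted transcript RCOR2 fell by 1.42 ± 0.11 on the log2(TPM + 1) scale when shRCOR2 was induced (SE; limma adjusted p = 0.000403), and by 0.94 ± 0.11 when shRCOR1 was (limma adjusted p = 0.00278). RCOR1 fell in the shRCOR1 line by 0.71 ± 0.12 (limma adjusted p = 0.0109). That RCOR1 call was lost without any one of the 4 shRCOR1 libraries (largest limma adjusted p = 0.0884).

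ACTA2, the actin of the smooth muscle thin filament (ENSG00000107796.13, chromosome 10, 88935074 to 88991339, minus strand, GRCh38/hg38), was high in 1 of the 6 groups. In the shRCOR2 line it was at 1.59 and 1.98 TPM untreated and at 18.83 and 17.11 TPM induced. In the shRCOR1 line it was at 1.27 and 2.47 TPM untreated and at 2.00 and 4.57 TPM induced. In the shCTRL line it was at 1.67 and 2.87 TPM untreated and at 2.54 and 6.07 TPM induced. Both induced shRCOR2 libraries thus lay above the other 10 libraries, and the remaining 5 groups overlapped each neighbour in the order of means. Within replicates 1 and 2, the induced level was 11.8 and 8.64 times the untreated one in the shRCOR2 line. These ratios were 1.57 and 1.85 in the shRCOR1 line and 1.52 and 2.11 in the shCTRL line, so ACTA2 was higher with doxycycline in every pair. The mean of the shRCOR2 line went from 1.79 ± 0.276 TPM (SD, n = 2) to 18.0 ± 1.22 TPM (n = 2), a log2 difference of 2.77 ± 0.40 (SE). The differences were 0.54 ± 0.40 in the shRCOR1 line and 0.64 ± 0.40 in the shCTRL line. Set against the shCTRL change, the shRCOR2 change was larger by 2.13 ± 0.56, and against the shRCOR1 change by 2.23 ± 0.56.

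**Figure D1:**
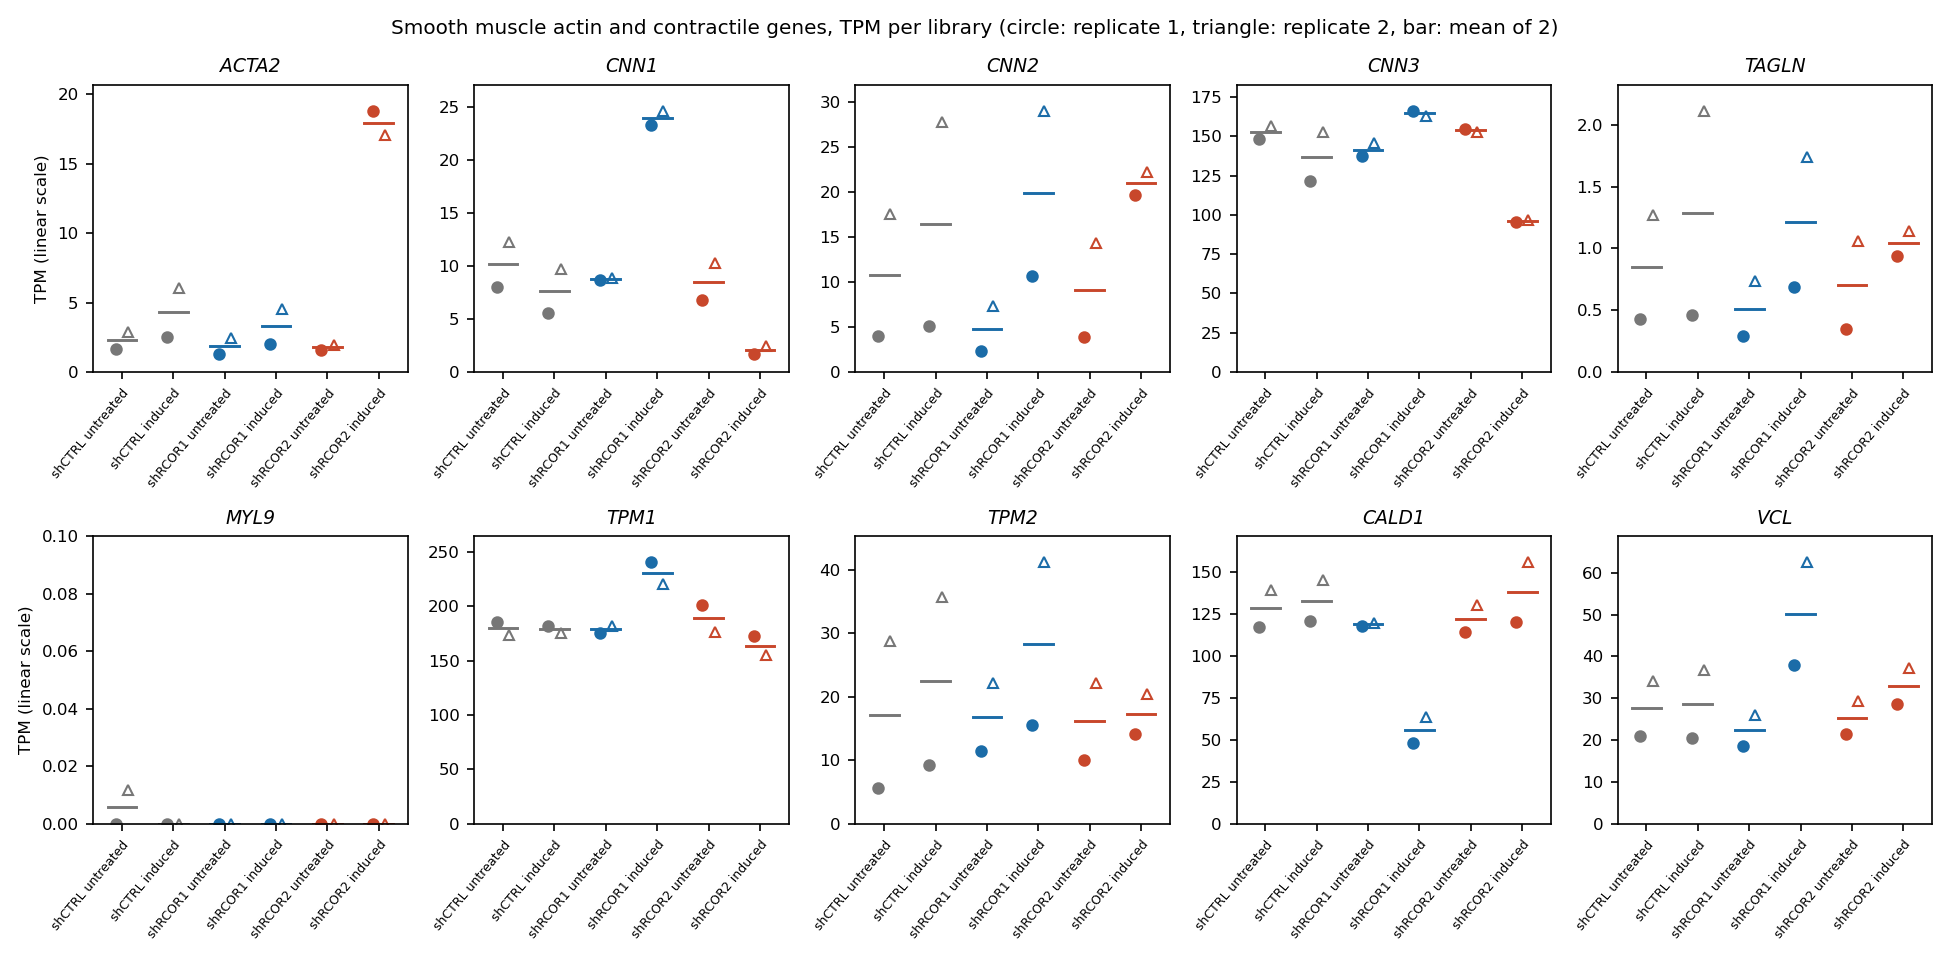
TPM (y axis, linear) of the 10 genes in each of the 6 groups (x axis); circles are replicate 1, triangles replicate 2 and bars the mean of the 2 libraries. ACTA2 is high only in the 2 induced shRCOR2 libraries (18.83 and 17.11 TPM), CNN1 is high in induced shRCOR1 and low in induced shRCOR2 cells, CALD1 is low in induced shRCOR1 cells, and MYL9 is at or near 0 throughout.

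Even at its highest, ACTA2 was a minor actin. The actin genes ACTB and ACTG1, which encode the cytoplasmic β and γ actins, made up nearly all actin TPM. ACTA2 took 0.0532% ± 0.0120 of the TPM of all 6 actin genes in untreated shRCOR2 cells and 0.621% ± 0.0349 in induced ones (SD, n = 2 each). ACTB was at 1901 and 1670 TPM in untreated and at 487 and 493 TPM in induced shRCOR2 libraries, and fell by 1.86 ± 0.14 (limma adjusted p = 0.000336). ACTB thus moved opposite to ACTA2 in this line, and its change was lower than the shCTRL change by 1.52 ± 0.20 (limma adjusted p = 0.0125), a call that was lost in 5 of the 12 fits that leave out 1 library (largest adjusted p = 0.0789). ACTG1 was at 1255 and 1414 TPM in untreated and at 3571 and 4264 TPM in induced shRCOR1 libraries, and rose by 1.55 ± 0.13 (limma adjusted p = 0.000533). In the shRCOR2 line ACTG1 rose by 0.58 ± 0.13 (limma adjusted p = 0.0198), and this call was lost without any one of the 4 shRCOR2 libraries (largest adjusted p = 0.123) under 2 other scalings and without the filter on low values. As a share of actin TPM, ACTG1 went from 47.2% to 82.4% in the shRCOR2 line while ACTB went from 52.7% to 16.9%. The shares moved the same way in the other lines. In the shCTRL line ACTG1 went from 42.8% to 53.4% and ACTB from 57.1% to 46.4%. In the shRCOR1 line ACTG1 went from 43.6% to 61.7% and ACTB from 56.3% to 38.2%. The skeletal actin ACTA1, the cardiac actin ACTC1 and the smooth muscle γ actin ACTG2 stayed below 0.03% of actin TPM. ACTG2 was at 0.0442 and 0 TPM in untreated and at 0.340 and 0.400 TPM in induced shRCOR2 libraries. It did not exceed 0.252 TPM in the other lines. Actin genes are close in sequence, and how the authors' counting assigned reads that match several of them is not stated.

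ACTA2 shares its locus with transcribed neighbours on the opposite strand. STAMBPL1, a deubiquitinase gene, overlaps it by 40080 bases, and FAS, the death receptor gene, by 809 bases at the 5′ end of ACTA2. The authors' strand setting is not stated, so reads of the overlapping parts may have been counted for either gene. FAS was at 1.67 and 1.47 TPM in untreated and at 5.14 and 4.35 TPM in induced shRCOR2 libraries, and rose by 1.16 ± 0.16 (limma adjusted p = 0.00375). FAS was not called in the shRCOR1 line (0.09 ± 0.16, limma adjusted p = 0.805), nor in the shCTRL line (0.03 ± 0.16). The FAS change exceeded the shRCOR1 change by 1.07 ± 0.23 (limma adjusted p = 0.0219), a call lost in 8 of the 12 fits that leave out 1 library (largest adjusted p = 0.0945). ACTA2 and FAS thus were both highest in the same 2 libraries, and the part of shared reads in this was not tested. STAMBPL1 did not follow them: it was at 13.5 and 13.2 TPM untreated and 17.1 and 16.0 TPM induced in the shRCOR2 line (0.29 ± 0.16, limma adjusted p = 0.261). In the shRCOR1 line STAMBPL1 fell from 11.9 and 11.8 TPM to 4.22 and 4.35 TPM, by 1.29 ± 0.16 (limma adjusted p = 0.00278), where ACTA2 went from a mean of 1.87 to 3.28 TPM.

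**Figure D2:**
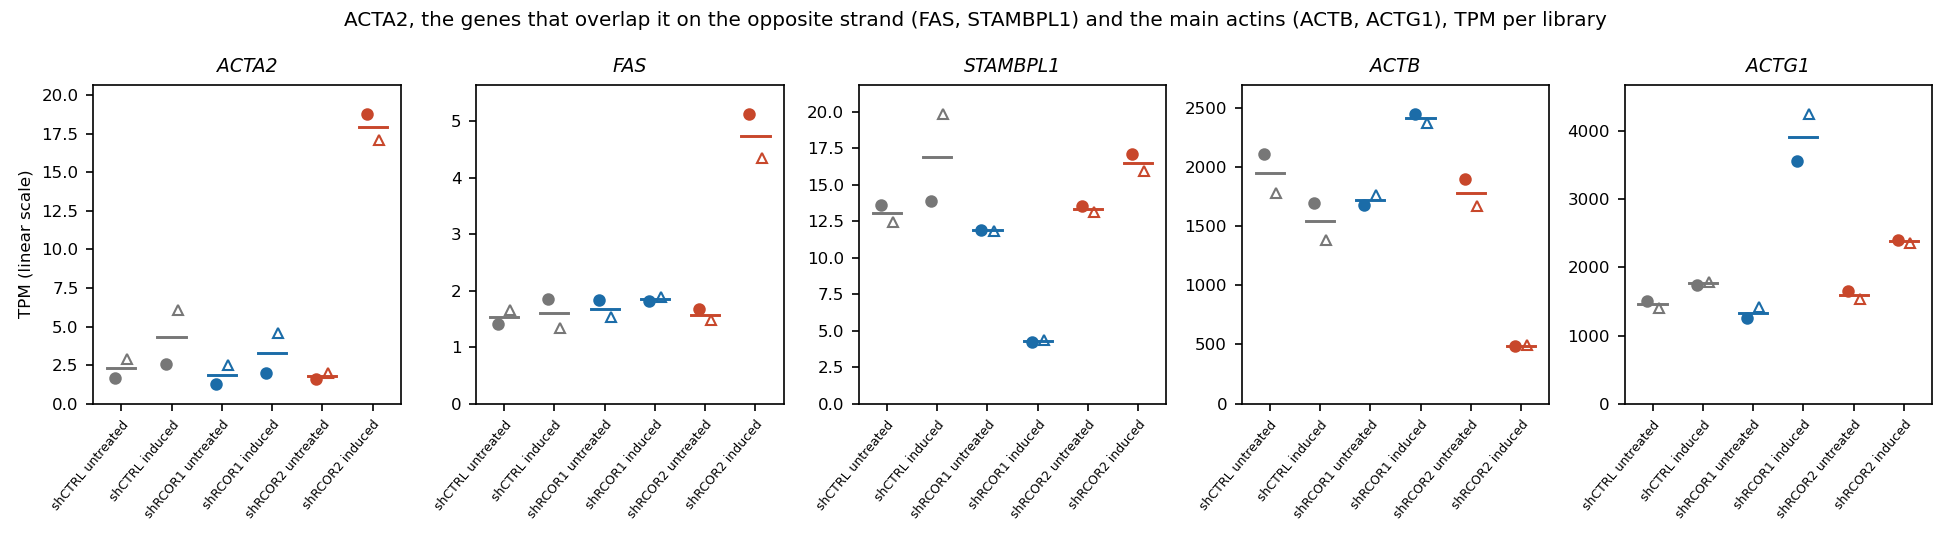
TPM (y axis, linear) in each of the 6 groups (x axis) of ACTA2, of the opposite-strand genes FAS and STAMBPL1 and of the cytoplasmic actins ACTB and ACTG1; circles are replicate 1, triangles replicate 2, bars the mean of 2 libraries. FAS and ACTA2 are highest in induced shRCOR2 cells, STAMBPL1 is lowest in induced shRCOR1 cells (4.22 and 4.35 TPM), and ACTB is lowest in induced shRCOR2 cells (487 and 493 TPM).

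The genes whose 6 group means on the log2 scale were most like those of ACTA2 were ZNF441 (Pearson r = 0.999), RBKS (0.998), ZNF641 (0.996), ADSS1 (0.995) and AC007114.1 (0.994). These coefficients are over 6 group means, of which 1 stands apart, and are a description of likeness. ZNF441 was at 3.24 and 2.88 TPM in untreated and at 11.1 and 9.89 TPM in induced shRCOR2 libraries. No contractile gene was among these 5.

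The 3 calponin genes did not move as 1 set. CNN1 (ENSG00000130176.8, chromosome 19, 11538767 to 11550323), the calponin of differentiated smooth muscle, was at 6.74 and 10.25 TPM in untreated and at 1.69 and 2.45 TPM in induced shRCOR2 libraries. In the shRCOR1 line CNN1 was at 8.62 and 8.89 TPM untreated and at 23.25 and 24.62 TPM induced. In the shCTRL line CNN1 was at 7.99 and 12.26 TPM untreated and at 5.59 and 9.72 TPM induced. Both induced knockdown groups stood apart from the other groups, on opposite sides, while the shCTRL groups overlapped. The log2 differences of CNN1 were −1.61 ± 0.29 (shRCOR2), 1.35 ± 0.29 (shRCOR1) and −0.38 ± 0.29 (shCTRL). CNN1 thereby moved opposite to ACTA2 in the shRCOR2 line, although both are textbook markers of differentiated smooth muscle.

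CNN3 (ENSG00000117519.16, chromosome 1, 94896949 to 94927223), the calponin expressed widely including in brain, was the most abundant calponin, with 79.1% to 91.3% of calponin TPM by group mean. CNN3 was at 155 and 153 TPM in untreated and at 95.4 and 96.6 TPM in induced shRCOR2 libraries, a log2 difference of −0.67 ± 0.11. In the shRCOR1 line CNN3 was at 137 and 146 TPM untreated and at 166 and 163 TPM induced (0.22 ± 0.11), and in the shCTRL line at 148 and 157 TPM untreated and at 121 and 153 TPM induced (−0.16 ± 0.11). CNN1 and CNN3 thus shared their direction in every line, and across the 6 group means their log2 levels had r = 0.926.

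CNN2 (ENSG00000064666.15, chromosome 19, 1026586 to 1039068), a calponin of many non-muscle cells, had the exact CArG box shown above and, among the members, the highest median ratio between replicates. In the untreated libraries, replicates 1 and 2 of CNN2 were at 3.995 and 17.62 TPM (shCTRL), 2.35 and 7.29 TPM (shRCOR1) and 3.896 and 14.30 TPM (shRCOR2). Induced, they were at 5.11 and 27.80 TPM (shCTRL), 10.67 and 29.07 TPM (shRCOR1) and 19.71 and 22.29 TPM (shRCOR2). The SE of 0.93 was therefore large beside differences of 1.34 in the shRCOR2 line, 1.83 in the shRCOR1 line and 0.46 in the shCTRL line. Within replicate 1 the induced level was 5.06 times the untreated one in the shRCOR2 line, 4.53 times in the shRCOR1 line and 1.28 times in the shCTRL line. Within replicate 2 these ratios were 1.56, 3.99 and 1.58, so the shRCOR2 and shCTRL ratios nearly coincided there.

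TAGLN (ENSG00000149591.17, chromosome 11, 117199370 to 117207464), which encodes transgelin, an early marker of smooth muscle, was sparse. It lay between 0.291 and 2.12 TPM, reached 1 TPM in 5 of 12 libraries, and all 6 groups overlapped their neighbours. Its log2 differences were 0.29 ± 0.42 (shRCOR2), 0.52 ± 0.42 (shRCOR1) and 0.25 ± 0.42 (shCTRL), and the induced and untreated libraries overlapped in each line. PCSK7, a proprotein convertase gene on the opposite strand, overlaps TAGLN by 3128 bases and was at 9.15 and 12.3 TPM untreated and at 17.3 and 23.0 TPM induced in the shRCOR2 line. The PCSK7 difference of 0.85 ± 0.29 was not called by limma (adjusted p = 0.0882) and was called with the replicate number as a block (limma adjusted p = 0.000594). The transgelin paralogs were more abundant and fell in the shRCOR2 line: TAGLN2, of many cell types, from 196 and 181 TPM to 60.0 and 49.1 TPM (−1.78 ± 0.14, limma adjusted p = 0.000336). TAGLN3, of neurons, went from 26.2 and 22.8 TPM to 10.2 and 10.4 TPM (−1.17 ± 0.16, limma adjusted p = 0.00370).

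MYL9 (ENSG00000101335.10, chromosome 20, 36541497 to 36551447), the regulatory light chain of smooth muscle and stress fibre myosin, was listed at 0 in 11 libraries and at 0.0118 TPM in replicate 2 of untreated shCTRL. It was the 1 member that did not reach the limit for testing, which was 1 TPM in at least 2 libraries. Other myosin light chain genes were present: MYL6, an essential light chain, lay between 293 and 505 TPM, and the regulatory chains MYL12A and MYL12B between 68.0 and 106 TPM and between 80.9 and 110 TPM.

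TPM1 (ENSG00000140416.23, chromosome 15, 63042632 to 63071915), the α tropomyosin gene, was the most abundant member. TPM1 was at 176 and 181 TPM in untreated and at 241 and 220 TPM in induced shRCOR1 libraries, a log2 difference of 0.36 ± 0.10, and the induced group stood above all others. In the shRCOR2 line it was at 201 and 176 TPM untreated and at 172 and 156 TPM induced (−0.20 ± 0.10), and in the shCTRL line at 186 and 173 TPM untreated and at 182 and 175 TPM induced (−0.01 ± 0.10). TPM2 (ENSG00000198467.16, chromosome 9, 35681992 to 35690056), the β tropomyosin gene, lay between 5.56 and 41.17 TPM, and all 6 groups overlapped their neighbours. Its log2 differences were 0.17 ± 0.85 (shRCOR2), 0.63 ± 0.85 (shRCOR1) and 0.47 ± 0.85 (shCTRL), and with the replicate number as a block their SE was 0.34. TPM1 supplied 35.8% to 41.7% of the TPM of the 4 tropomyosin genes by group mean and TPM2 3.19% to 5.35%. The deposited values are per gene, so the muscle and non-muscle splice forms of TPM1, TPM2 and CALD1 are summed.

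CALD1 (ENSG00000122786.20, chromosome 7, 134744252 to 134970729), caldesmon, was the member that was lower in the shRCOR1 line. It was at 118 and 120 TPM in untreated and at 47.8 and 63.5 TPM in induced shRCOR1 libraries, a log2 difference of −1.09 ± 0.18. It was at 114 and 130 TPM untreated and 120 and 156 TPM induced in the shRCOR2 line (0.17 ± 0.18), and at 117 and 139 TPM untreated and 121 and 145 TPM induced in the shCTRL line (0.05 ± 0.18). Only induced shRCOR1 cells stood apart from the other 5 groups. CALD1 and TPM1, whose products share the actin filament, were opposite across groups (r = −0.951 over 6 group means, a description).

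VCL (ENSG00000035403.18, chromosome 10, 73995193 to 74121363), vinculin, was at 18.6 and 26.0 TPM in untreated and at 37.9 and 62.6 TPM in induced shRCOR1 libraries, a log2 difference of 1.11 ± 0.36. Induced shRCOR1 cells were above all other groups. VCL was at 21.3 and 29.4 TPM untreated and at 28.7 and 37.1 TPM induced in the shRCOR2 line (0.37 ± 0.36), and at 20.9 and 34.2 TPM untreated and at 20.5 and 36.8 TPM induced in the shCTRL line (0.04 ± 0.36). Within replicates 1 and 2, the induced level was 2.03 and 2.41 times the untreated one in the shRCOR1 line, 1.34 and 1.26 times in the shRCOR2 line, and 0.982 and 1.07 times in the shCTRL line. AP3M1, an adaptor subunit gene that overlaps VCL by 1109 bases on the opposite strand, was not called in any line.

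**Figure D3:**
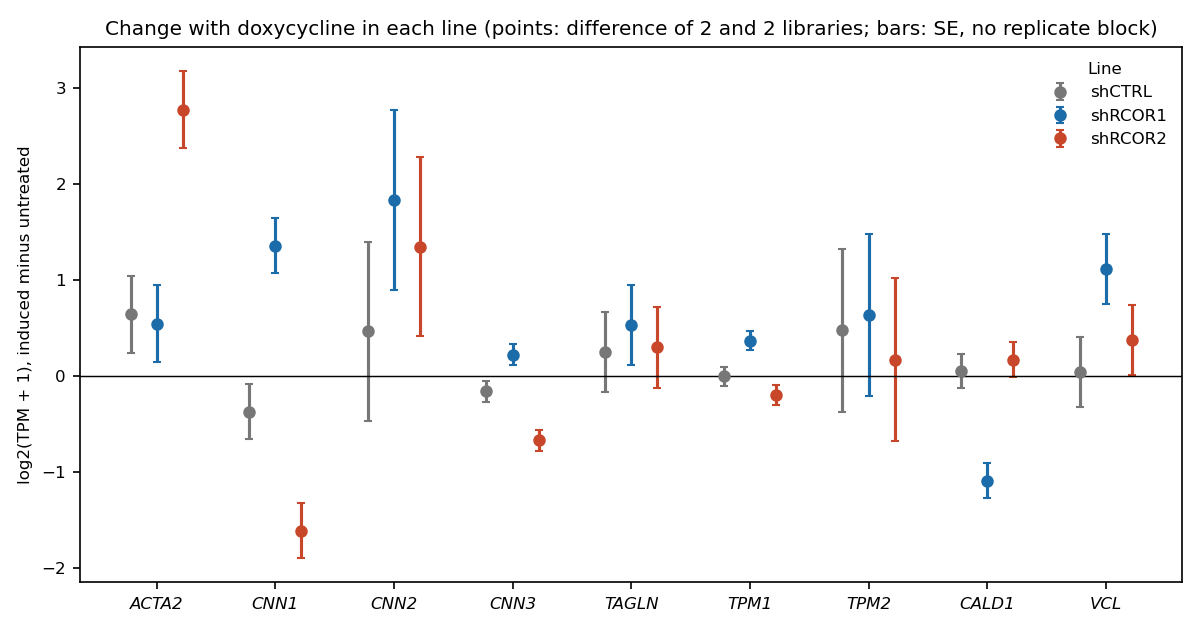
Log2(TPM + 1) of induced minus untreated libraries (y axis) for the 9 tested genes (x axis) in each line; points are the difference of 2 and 2 libraries and bars its SE without a replicate block. ACTA2 is highest in the shRCOR2 line (2.77), CNN1 points opposite ways in the knockdown lines (1.35 and −1.61), CALD1 is low in the shRCOR1 line (−1.09), and the CNN2 and TPM2 bars are wide.

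The members' calls are given only beside the share of all genes called, since the same values chose the members. In the shRCOR2 line limma called 3 of 9 tested members at an adjusted p below 0.05 (ACTA2 higher, CNN1 and CNN3 lower), where it called 14.3% of the 16842 genes tested. With the replicate number as a block it called 6, adding CNN2 and VCL higher and TPM1 lower, where it called 36.2% of genes. Without replicate 2 of untreated or replicate 1 of induced shRCOR2 cells, 1 member was called (ACTA2), beside 3.46% and 2.93% of genes. In the shRCOR1 line limma called 2 members (CNN1 higher, CALD1 lower) beside 8.62% of genes, and 5 with the block (CNN2, TPM1 and VCL also, all higher) beside 27.4%. That count was 0 without replicate 1 or 2 of untreated or replicate 1 of induced shRCOR1 cells (1.94%, 2.3% and 4.12% of genes), and 1 (CALD1) without replicate 2 of induced shRCOR1 cells (2.56%). The members' counts thus went down in fits where the share of all genes went down too. In the shCTRL line limma called 0 members beside 0% of genes, with 0 members and 938 genes at an unadjusted p below 0.05; with the block these shares were 0 members and 0.0594% of genes.

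The members' median log2 difference was 0.17 in the shRCOR2 line (all genes, 0.07), 0.54 in the shRCOR1 line (all genes, 0.04) and 0.05 in the shCTRL line (all genes, −0.02). For the difference between the shRCOR2 and shCTRL changes, limma called 0 members (3 at an unadjusted p below 0.05) beside 2.09% of genes, and with the block 3 (ACTA2, CNN1 and CNN3) beside 14.7%. For the difference between the shRCOR1 and shCTRL changes, limma called 0 members (4 at an unadjusted p below 0.05) beside 1.28% of genes, and with the block 4 (CNN1, CALD1, TPM1 and VCL) beside 10.2%. Between the changes of the 2 knockdown lines (shRCOR2 minus shRCOR1), limma called 5 members (ACTA2 and CALD1 higher, CNN1, CNN3 and TPM1 lower) beside 11.2% of genes, and with the block 6 (VCL also, lower) beside 30.4%. Without 1 library of the shRCOR1 or shRCOR2 lines this count was 2 to 4, beside 4.11% to 6.72% of genes, and CNN1 and CNN3 were among the called in each of those 8 fits. The 3 contrasts within lines share no library, but they share 1 estimate of the spread from all 12 libraries. The 3 differences between lines share libraries as well, so the contrasts are not independent.

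Much of the members' spread ran with the replicate number. Replicate 2 was above replicate 1 in all 6 groups for 6 of the 9 tested members (CNN1, CNN2, TAGLN, TPM2, CALD1 and VCL), a pattern that 30.6% of all genes tested showed. The ratio of replicate 2 to replicate 1 had a median of 3.38 for CNN2, 2.75 for TAGLN and 2.44 for TPM2, against 1.03 for CNN3 and 0.923 for TPM1. Markers of fibroblasts and mural cells moved with the replicate number too. Of the 15 genes of that list other than RGS5, 8 were higher in replicate 2 of all 6 groups, and their summed level was 63.0 to 76.9 TPM in replicate 1 and 80.0 to 203 TPM in replicate 2. The collagen gene COL1A1 was at 10.7 and 87.3 TPM in untreated shCTRL replicates 1 and 2, and at 7.94 and 11.9 TPM in those of induced shRCOR2 cells, while the fibroblast gene FAP was listed at 0 in every library and COL1A2 did not exceed 0.293 TPM. The immediate early SRF target FOS went the other way and was lower in replicate 2 of every group. Replicates 1 and 2 were at 209 and 1.38 TPM in untreated shCTRL cells, and at 50.4 and 31.7 TPM in induced shRCOR1 cells. COL1A1, COL1A2, FAP and FOS were singled out after their values were seen. The part of these differences between replicates in the member values was not tested.

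Like the members, the gene lists were chosen with earlier results of these data known, so their shares called are a description. Of 14 other smooth muscle genes 6 reached the limit for testing, and levels within the list were unequal. SMTN, which encodes smoothelin, was at 14.0 to 26.3 TPM over the 12 libraries, MYLK, the myosin light chain kinase, at 3.28 to 12.5 TPM and SYNM, which encodes the intermediate filament protein synemin, at 2.37 to 16.1 TPM. The defining myosin heavy chain MYH11, in contrast, did not exceed 0.0176 TPM in any library. The coactivator gene MYOCD was listed at 0 in 11 libraries and at 0.00238 TPM in the other, and the intermediate filament gene DES did not exceed 0.606 TPM. The summed level of the 14 genes was 37.6 to 61.3 TPM over the 12 libraries and 42.8 and 40.8 TPM in induced shRCOR2 cells, where ACTA2 was high. SYNM was the 1 gene of the list called in the shRCOR2 line, beside 14.3% of all genes. It fell by 1.22 ± 0.26 (limma adjusted p = 0.0185), from 7.44 and 7.29 TPM to 2.83 and 2.37 TPM. The SYNM call was lost without any one of the 4 shRCOR2 libraries (largest limma adjusted p = 0.114). No gene of this list was called by limma in the shRCOR1 line, beside 8.62% of all genes (4 at an unadjusted p below 0.05). With the block 2 rose and 2 fell, beside 27.4%. Of 20 striated muscle genes 9 were tested and none was called by limma in the shRCOR2 or shRCOR1 line (0 and 2 at an unadjusted p below 0.05). With the block 1 fell in the shRCOR2 line and 2 rose in the shRCOR1 line, beside 36.2% and 27.4% of all genes.

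Among 14 paralogs of the members, 12 were tested. Of these 1 rose (ACTG1) and 3 fell (ACTB, TAGLN2 and TAGLN3) in the shRCOR2 line, beside 14.3% of all genes called. In the shRCOR1 line 2 rose and none fell, beside 8.62%, and with the block 6 rose, beside 27.4%. The medians were −0.16 and 0.37. The shRCOR1 count was 1 (ACTG1) without either untreated library or replicate 2 of the induced libraries of that line, and the ACTG1 call in the shRCOR2 line was lost without any one of its 4 libraries. The paralogs ACTB and TAGLN2 differed between the lines themselves, with shRCOR2 changes lower than the shRCOR1 changes by 2.35 ± 0.20 and 2.23 ± 0.19 (limma adjusted p = 0.000873 and 0.000973), and TAGLN3 by 1.29 ± 0.23 (limma adjusted p = 0.0108).

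Among genes of the myosin motor and its control, the small GTPase genes RHOA and RHOC fell in the shRCOR2 line and the motor gene MYH9 rose in the shRCOR1 line. Of 17 tested genes of this list, 1 rose and 2 fell in the shRCOR2 line (median 0.00) and 3 rose and none fell in the shRCOR1 line (median 0.36); with the block 2 rose and 4 fell, and 7 rose and 1 fell. The share called was 17.6% in each line, near the 14.3% of all genes in the shRCOR2 line and beside 8.62% in the shRCOR1 line. More were called in the shRCOR1 line without either induced shCTRL library. The call of the RHOC rise in the shRCOR1 line was lost in 6 of the 12 fits that leave out 1 library. RHOA, a small GTPase that promotes contractility, went from 388 and 388 TPM to 195 and 197 TPM in the shRCOR2 line and fell by 0.98 ± 0.08 (limma adjusted p = 0.000525). Its relative RHOC fell by 1.30 ± 0.19 (limma adjusted p = 0.00443), from 72.0 and 93.0 TPM to 33.2 and 32.1 TPM. MYH9, the heavy chain of non-muscle myosin IIA, went from 63.3 and 75.3 TPM to 162 and 212 TPM in the shRCOR1 line and rose by 1.41 ± 0.18 (limma adjusted p = 0.00302). DAPK3, a kinase of the regulatory light chain, rose there by 0.77 ± 0.10 (limma adjusted p = 0.0030). DAPK3 was also the gene that rose in the shRCOR2 line, from 42.9 and 41.0 TPM to 58.8 and 54.2 TPM. That call was lost without any one of the 4 shRCOR2 libraries. The changes differed between the lines by −1.13 ± 0.12 for RHOA, −2.08 ± 0.27 for RHOC and −1.43 ± 0.25 for MYH9 (shRCOR2 minus shRCOR1; limma adjusted p = 0.00189, 0.00375 and 0.0102).

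Among SRF, the MRTF genes and their known targets, 11 of 28 tested genes rose in the shRCOR1 line and none fell. Their median was 0.58, where all genes had 0.04, and with the block 16 rose and 1 fell. Without the block the share was 39.3% beside 8.62% of all genes. It is a description, since this list was chosen with earlier results of these data known. Fewer were called without either untreated library or replicate 2 of the induced libraries of the line. The share of all genes called went down in those fits too. MYH9, FHL2 and ACTG1 were called in each of the 12 fits that leave out 1 library, while the calls of AMOTL2 and TGFB1I1 were lost in 8 and 10 of them. In the shRCOR2 line 2 rose and 1 fell, beside 14.3% of all genes, with a median of 0.00. With the block 5 rose and 1 fell, beside 36.2%. Without the block, the ACTG1 call was lost there without any one of the 4 shRCOR2 libraries. The TGFB1I1 call was lost without either untreated library or replicate 2 of the induced ones. FHL2, a LIM domain coactivator, went from 7.03 and 6.95 TPM to 25.2 and 32.3 TPM in the shRCOR1 line and rose by 1.89 ± 0.25 (limma adjusted p = 0.00356). ZYX, which encodes the adhesion protein zyxin, rose there by 1.77 ± 0.32 (limma adjusted p = 0.0130), from 20.9 and 28.4 TPM to 72.8 and 101 TPM. ANKRD1, a mechanosensitive target, was at 0 and 0.0815 TPM untreated and at 1.94 and 12.8 TPM induced in the shRCOR1 line. It rose there by 2.61 ± 0.57 (limma adjusted p = 0.0267). In the shRCOR2 line ANKRD1 was at 0.0804 and 0 TPM untreated and at 1.81 and 0.907 TPM induced. It was not called there, nor for the difference between the lines. The ZYX call was lost without either untreated shRCOR1 library or replicate 2 of the induced ones (largest limma adjusted p = 0.104), and the ANKRD1 call without either untreated library (0.147). The SRF transcript itself was called in neither line without the block and only in the shRCOR1 line with it, at 20.5 to 26.9 TPM over all 12 libraries. For the difference between the lines, 4 of the 28 were lower in the shRCOR2 line (ACTB, ACTG1, MYH9 and FHL2), beside 11.2% of all genes. With the block 12 were lower and 1 was higher, beside 30.4%. That count of 4 was 2 without replicate 1 of untreated shRCOR1 or either induced shRCOR2 library.

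Among genes for proteins that shape or cross-link actin filaments, ACTN1, MSN and PLS3 fell in the shRCOR2 line and MARCKS in the shRCOR1 line. Of 28 tested genes 1 rose and 4 fell in that line, and 3 rose and 1 fell in the shRCOR1 line; medians were −0.07 and 0.06, and with the block 2 rose and 5 fell, and 5 rose and 3 fell. The share called, 17.9% in the shRCOR2 line, was near the 14.3% of all genes, and was 14.3% beside 8.62% in the shRCOR1 line. Without any one of the 4 shRCOR2 libraries ACTN1, MSN and PLS3 were called there. In the shRCOR1 line 1 gene (MARCKS) was called without either untreated library and 2 without either induced one, and 7 without either induced shCTRL library. ACTN1, the α-actinin of stress fibres and adhesions, went from 101 and 133 TPM to 37.3 and 39.7 TPM in the shRCOR2 line and fell by 1.56 ± 0.17 (limma adjusted p = 0.00146). MSN, which encodes moesin, a link of actin to the membrane, fell by 1.27 ± 0.11 (limma adjusted p = 0.000571), and PLS3, an actin-bundling plastin, by 1.23 ± 0.10 (limma adjusted p = 0.000403). MARCKS, an actin-binding protein of the membrane, fell in the shRCOR1 line by 1.16 ± 0.12 (limma adjusted p = 0.00128). The ACTN1 change was lower in the shRCOR2 line than in the shRCOR1 line by 2.43 ± 0.24 (limma adjusted p = 0.00157), and the MARCKS change higher by 1.04 ± 0.16 (limma adjusted p = 0.00726).

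Among adhesion genes, whose products are partners of vinculin, the integrin genes ITGB1 and ITGAV were called in different lines. Of 23 tested 5 fell and none rose in the shRCOR2 line (median −0.01), and 6 rose and 1 fell in the shRCOR1 line (median 0.51); with the block 2 rose and 7 fell, and 13 rose and 1 fell. The shares called were 21.7% and 30.4%, beside 14.3% and 8.62% of all genes. The shRCOR1 count was 1 without replicate 1 (TLN2) or 2 (ITGB1) of untreated and 2 without replicate 2 of induced shRCOR1 cells. The shRCOR2 count was 1 without replicate 1 of induced shRCOR2 cells and 3 without any one of the other libraries of that line. ITGB1, the β1 integrin, rose in the shRCOR1 line by 0.84 ± 0.13 (limma adjusted p = 0.00585; 0.0608 without replicate 1 of untreated shRCOR1 cells). ITGAV, the αV integrin, fell in the shRCOR2 line by 0.95 ± 0.15 (limma adjusted p = 0.00569; 0.0527 without replicate 1 of induced shRCOR2 cells). TLN2, a talin, was the adhesion gene that fell in the shRCOR1 line, by 1.53 ± 0.25 (limma adjusted p = 0.00843), a call lost without replicate 2 of the untreated or replicate 1 of the induced shRCOR1 cells (largest adjusted p = 0.0724). Between the lines 13 of 23 were lower in the shRCOR2 line and 1 was higher with the block, beside 30.4% of all genes. Without the block 6 were lower, beside 11.2%, ITGAV by 1.50 ± 0.21 (limma adjusted p = 0.00476). Without replicate 1 of untreated shRCOR1, replicate 2 of untreated shRCOR2 or replicate 1 of induced shRCOR2 cells this count was 3.

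**Figure D4:**
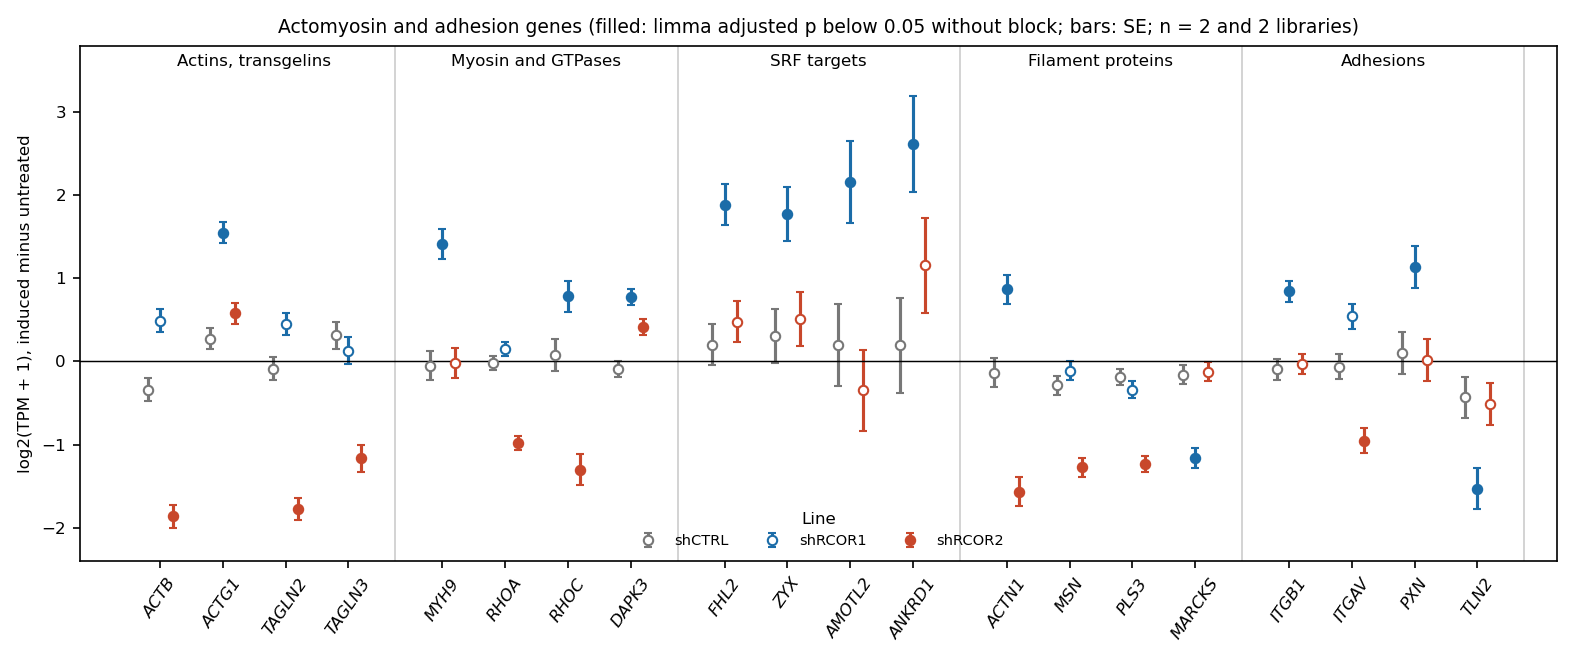
Log2(TPM + 1) of induced minus untreated libraries (y axis) for 20 genes of the actin, myosin, SRF, filament and adhesion lists (x axis) in each line; bars are SE (n = 2 and 2 libraries) and filled points have a limma adjusted p below 0.05 without a block. ACTB, TAGLN2, RHOA, RHOC and ACTN1 lie below 0 in the shRCOR2 line, ACTG1, MYH9, FHL2 and ZYX lie above 0 in the shRCOR1 line, and no shCTRL point is filled.

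Of 18 tested genes of the TGF-β pathway, an inducer of contractile genes in fibroblasts, 6 rose and 1 fell in the shRCOR1 line (median 0.65). With the block 9 rose and 1 fell. Without the block the share was 38.9% beside 8.62% of all genes, a description, since this list too was chosen with earlier results known. None of the 18 was called by limma there without replicate 1 of untreated or replicate 2 of induced shRCOR1 cells, and 1 without replicate 2 of untreated (SKI) or replicate 1 of induced ones (TGFBI). Without either induced shRCOR2 library the count was 4. Of these genes 1 fell in the shRCOR2 line, beside 14.3% of all genes, with a median of −0.07. That count varied in the fits that leave out 1 library. With the block 5 rose and 3 fell, beside 36.2%. For the difference between these changes 2 of 18 were called, beside 11.2% of all genes (SMAD3 and TGFB1, both lower in the shRCOR2 line). These calls were lost in 7 and 10 of the 12 fits that leave out 1 library. Of 16 fibroblast, mural and endothelial markers 10 were tested. In the shRCOR2 line 1 fell (with the block 3), beside 14.3% of all genes (with the block 36.2%). In the shRCOR1 line 1 rose and 1 fell (with the block 2 and 2), beside 8.62% (with the block 27.4%). RGS5, a pericyte marker at 865 TPM or more in every library, fell in the shRCOR2 line by 1.54 ± 0.18 (limma adjusted p = 0.00169) and by 1.49 ± 0.18 in the shRCOR1 line (limma adjusted p = 0.00260). Without RGS5 this list summed to 66.8 and 120.0 TPM in untreated and to 68.8 and 80.0 TPM in induced shRCOR2 libraries (replicates 1 and 2). Within replicate 1 the induced sum was near the untreated one, and within replicate 2 it was lower. Any link with the ACTA2 level was not tested. VWF, the endothelial gene for von Willebrand factor, went from 0.661 and 0.822 TPM to 1.47 and 2.54 TPM in the shRCOR1 line and rose by 0.77 ± 0.19 (limma adjusted p = 0.0461), a call lost in 9 of the 12 fits that leave out 1 library (largest adjusted p = 0.252). It was at 0.666 to 1.12 TPM in the other 8 libraries. The endothelial genes PECAM1 and CDH5 did not exceed 0.00389 and 0.0494 TPM. All 12 adrenergic neuroblastoma genes were tested and present in every group. In the shRCOR2 line 1 rose and 3 fell, beside 14.3% of all genes (median −0.35, with the block 2 rose and 6 fell). In the shRCOR1 line 4 fell, beside 8.62% (median −0.44, with the block 1 rose and 7 fell). None was called in the shRCOR2 line without any one of its 4 libraries and 2 without either untreated shRCOR1 library, and in the shRCOR1 line 1 (ISL1) without either untreated library or replicate 2 of the induced ones. Their summed level was 9922 and 10096 TPM in untreated and 6122 and 6733 TPM in induced shRCOR2 libraries. In the shRCOR1 line it was 10451 and 10809 TPM untreated and 7326 and 7079 TPM induced. In the shCTRL line it was 10025 and 8864 TPM untreated and 9198 and 7138 TPM induced. ISL1, a sympathetic lineage factor, fell in the shRCOR1 line by 1.30 ± 0.18 (limma adjusted p = 0.00428). In the shCTRL line limma called 0 genes in each of the 10 lists, with or without the block, and 0 to 4 genes per list had an unadjusted p below 0.05 without it.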

How the data were processed

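RNA of 12 Kelly libraries in 6 groups was prepared with a directional NEBNext Ultra II kit, per the labels' protocols. The submitters' processing notes name StringTie 2.1.7, HISAT2 2.2.1, Trim Galore 0.6.7 and the builds GRCh38 and hg38; sources used here do not give the annotation, strand setting or multimapping rule. The deposited TPM, which the authors scaled so that every library has the same sum, were the main values. The deposited FPKM served as an alternative, and the deposited coverage (mean read depth per base) served with FPKM to compare depth (ratio 13.13 to 28.32). The files hold no read counts, so no counting intervals are given.

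The 16842 genes with at least 1 TPM in at least 2 libraries were fitted as log2(TPM + 1) with 6 group means over all 12 libraries in limma 3.58.1 (R 4.3.3; empirical Bayes with a trend). Fold changes on this scale understate the change of low genes. A gene is called where its p, adjusted by Benjamini-Hochberg over all of them, is below 0.05. The 10 members and the 10 gene lists (paralogs, other smooth muscle genes, myosin regulation, SRF and MRTF, filament proteins, adhesions, TGF-β, fibroblast and mural, striated muscle, adrenergic; 182 genes, some in several lists) were chosen with earlier results of these data known. One gene of the adhesion list is not reported here and was taken out of its counts. Named were the members; from each list the called genes, at most 4 per contrast and direction by size, or the 2 most abundant where none was called; opposite-strand or same-strand neighbours that overlap a member and reach 1 TPM; the 5 genes most like ACTA2 among those spanning at least 1 on the log2 scale; RCOR1, RCOR2, ACTB and ACTG1. Genes named outside this rule (FOS, SRF, MYL6, MYL12A, MYL12B, MYH11, SMTN, MYLK, MYOCD, DES, FAP, COL1A1, COL1A2, PECAM1, CDH5, ACTA1, ACTC1, ACTG2) were chosen after their values were seen. RGS5 stands at 2 identifiers, and the more abundant one is given.

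Deviations of replicates from their group means had positive correlations in each of the 15 pairs of groups (0.372 to 0.750, across genes), so the replicate numbers pair the samples. The labels do not say what a number marks. Every result was also fitted with the replicate number as a block, and with FPKM, a pseudocount of 0.1, no filter, a mean TPM of at least 5, median-of-ratios scaling, quantile normalization, mitochondrial genes left out and each library left out. The script was tested on simulated data. Tables and figures used Python 3.11.15, pandas 2.3.3, numpy 2.4.6 and matplotlib 3.10.9.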

Additional observations from a re-analysis of the deposited data

Results flagged for a closer look

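The values here are differences between the changes with doxycycline in 2 lines, on the log2(TPM + 1) scale, for genes whose difference passed limma's test at an adjusted p below 0.05 without a block. They carry no explanation. None of the calls against the shCTRL line, and 15 of the 28 calls between the knockdown lines, held in all 12 fits that leave out 1 library.

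Against the shRCOR1 change, the shRCOR2 change was lower for the actins ACTB (−2.35) and ACTG1 (−0.97), the transgelins TAGLN2 (−2.23) and TAGLN3 (−1.29), and the filament proteins ACTN1 (−2.43), EZR (−1.11), MSN (−1.16) and PLS3 (−0.89). It was also lower for the motor and GTPase genes MYH9 (−1.43), RHOA (−1.13), RHOC (−2.08) and PPP1CB (−0.68), and for FHL2 (−1.41), SYNM (−2.04), SMAD3 (−0.96) and TGFB1 (−0.99). Among adhesion and junction genes it was lower for CTNNA1 (−1.36), ILK (−0.88), ITGAV (−1.50), ITGB1 (−0.87) and TNS1 (−1.34). It was higher for MARCKS (1.04), FAS (1.07), STAMBPL1 (1.57), CHGB (0.78), GATA3 (1.16), ISL1 (1.08) and RCOR1 (0.71).

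Against the shCTRL change, the shRCOR2 change was lower for ACTB (−1.52), TAGLN2 (−1.69), TAGLN3 (−1.48), ACTN1 (−1.43), MSN (−0.99), PLS3 (−1.04), RHOA (−0.96), RHOC (−1.38), ILK (−0.72), SYNM (−1.88), RGS5 (−1.21) and RCOR2 (−1.24), and higher for FAS (1.12). The shRCOR1 change was higher than the shCTRL change for ACTG1 (1.27), MYH9 (1.46), DAPK3 (0.86), MRTFA (0.97) and ITGB1 (0.94), and lower for MARCKS (−1.001) and STAMBPL1 (−1.62).

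Among the members, both replicate pairs of the shRCOR1 line went up and both of the shRCOR2 line went down for CNN1 (difference −2.97), CNN3 (−0.89) and TPM1 (−0.57). Limma called these 3 differences too, and the calls are only a description, since the same values chose the members.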

How the results depend on the processing

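No called difference of a member or a named gene changed sign in any alternative run. Signs of the other called genes were not compared. With the replicate block the numbers of genes called were 6100 (shRCOR2), 4620 (shRCOR1), 10 (shCTRL), 2481 (shRCOR2 minus shCTRL), 1712 (shRCOR1 minus shCTRL) and 5125 (shRCOR2 minus shRCOR1), against 2406, 1451, 0, 352, 216 and 1880 without it. Members called with the block were 6, 5, 0, 3, 4 and 6, against 3, 2, 0, 0, 0 and 5. Without the filter on low values 6 genes were called in the shCTRL line and 350 for shRCOR1 minus shCTRL, and 1 member in the shRCOR1 line and 3 for shRCOR2 minus shRCOR1. Quantile normalization gave 325 genes for shRCOR1 minus shCTRL, with 1 member there and 2 for shRCOR2 minus shCTRL. FPKM gave 1 member for each of these differences, and median-of-ratios scaling 1 for shRCOR1 minus shCTRL. Fits that leave out 1 library called 493 to 3036, 326 to 1900, 0, 19 to 321, 26 to 173 and 693 to 2353 genes in the same order, and 1 to 3, 0 to 2, 0, 0 to 1, 0 and 2 to 5 members. The causes of these shifts were not tested. Where a left-out library leaves 1 in a group, that library is assumed to vary like the others. The other scalings moved the median of all genes by less than 0.1. The limits lie in 2 libraries a group, in the pairing whose source is unknown, in values per gene without read counts, in reads that overlapping or near-identical genes may share, and in conflicting induction times.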
